A study of Mus musculus with 10 samples.

Results

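The genes described here encode LSD1 (Kdm1a), its paralog KDM1B (Kdm1b) and the core of the CoREST complex. They were chosen by gene symbol: all probe sets whose only symbol on the array platform was Kdm1a, Kdm1b, Rcor1, Rcor2, Rcor3, Hdac1, Hdac2 or Phf21a. This gave 21 of 45037 probe sets, for 8 of 18193 genes. The set was put together with results of this comparison in view, among them the low Kdm1a signal in depleted oocytes. The members' differences between groups are therefore given as a description, without p-values.

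The arrays came from mouse germinal vesicle oocytes, the fully grown stage arrested in prophase of the first meiotic division. There were 5 arrays of wild-type oocytes and 5 of oocytes depleted of CTCF, the zinc finger protein that binds insulators and anchors chromatin loops, and the study looked for target genes of CTCF. The labels do not give the means of depletion, the strain, the age of the animals, or how many oocytes each sample held, and nothing in them says that the samples of a group came from different animals. The p-values therefore set the difference between groups only against the spread among these samples, and that spread may be technical. The description field calls the wild-type arrays CTCF-depleted too, so groups were taken from titles and source names.

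LSD1 is a flavin-dependent enzyme that removes methyl groups from mono- and dimethylated lysine 4 of histone H3. In the CoREST complex a scaffold protein holds it beside a deacetylase, so that active marks of both kinds can be taken off the same nucleosome. KDM1B has the same substrate, does not bind CoREST, and is known in mouse oocytes for its part in setting the DNA methylation of some imprinted genes, while loss of LSD1 from mouse oocytes is known to disturb meiotic arrest and early embryo development.

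The promoters of 3 members are shown because they contrast a gene whose signal was low in depleted oocytes (Kdm1a), one with a smaller difference (Rcor1) and one with little (Hdac2). Each window holds 250 bases before and 50 after the annotated start, from RefSeq on GRCm38.p6, written 5′ to 3′ on the gene's strand. Capitals mark matches, on either strand, to 3 forms of the CTCF consensus: CCCTC, AGGGGGCGC and a degenerate 12-letter core.
Kdm1a, chr4:136602674-136602973, minus strand: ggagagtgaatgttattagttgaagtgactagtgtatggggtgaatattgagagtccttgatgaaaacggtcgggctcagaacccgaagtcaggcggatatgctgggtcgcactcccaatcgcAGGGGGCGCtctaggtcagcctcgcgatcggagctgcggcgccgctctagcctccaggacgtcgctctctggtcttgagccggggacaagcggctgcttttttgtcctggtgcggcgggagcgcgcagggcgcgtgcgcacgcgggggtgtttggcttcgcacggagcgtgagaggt
Rcor1, chr12:111039117-111039416, plus strand: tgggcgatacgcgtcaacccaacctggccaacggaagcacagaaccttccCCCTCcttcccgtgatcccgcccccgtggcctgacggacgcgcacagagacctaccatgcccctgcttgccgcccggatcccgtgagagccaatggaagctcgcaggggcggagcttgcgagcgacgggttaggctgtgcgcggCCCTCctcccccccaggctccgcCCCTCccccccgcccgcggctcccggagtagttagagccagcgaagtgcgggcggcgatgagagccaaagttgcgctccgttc
Hdac2, chr10:36974294-36974593, plus strand: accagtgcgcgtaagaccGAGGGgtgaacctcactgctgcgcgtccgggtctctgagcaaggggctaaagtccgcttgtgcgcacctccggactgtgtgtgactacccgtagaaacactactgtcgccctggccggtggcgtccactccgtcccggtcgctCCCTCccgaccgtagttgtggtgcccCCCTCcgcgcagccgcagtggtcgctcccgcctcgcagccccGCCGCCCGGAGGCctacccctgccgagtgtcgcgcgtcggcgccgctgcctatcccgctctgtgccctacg

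The Kdm1a window held AGGGGGCGC once, beginning 127 bases before the start, and neither of the other patterns. This pattern was added after the sequence had been seen, and 1.25% of the 32851 promoters in the table held it. The Hdac2 window held the 12-letter core on both strands, in overlapping positions from base 230 of the window, and 4.07% of all promoters held that pattern. CCCTC occurred in 65.95% of promoters, 3 times in the Rcor1 window and 3 times in that of Hdac2. Promoter windows were matched for 7 of the 8 genes, Hdac1 being the other, and among their 8 windows these were the only matches to the 9-letter and 12-letter patterns. A match is a run of letters and not a measured binding site.

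The depletion and the purity of the samples were checked first. Ctcf signal on its dimmer probe set was 877, 724, 805, 722 and 700 on the wild-type arrays and 14.2, 7.07, 11.4, 9.94 and 61.1 on the depleted arrays, replicates 1 to 5. The groups did not overlap, and depleted replicate 5 kept the most Ctcf signal, as it did on the brighter probe set at 95.8 against 16.7 to 29.3 on the other depleted arrays. Background was set per array by its 27 probe sets for Bacillus genes, the brightest of which read 4.75 to 10.9. All 13 measured oocyte markers lay above it on all 10 arrays. Markers of granulosa and cumulus cells, the somatic cells around the oocyte, summed to 2493 on wild-type replicate 2, against 946 to 1090 on the other wild-type arrays and 929 to 1302 on the depleted ones. Of these 15 markers 10 were above background on all arrays and Tnfaip6 on none, and 3 of 14 tested were called higher in depleted oocytes by limma, beside 7.26% of all genes. These were Fshr, the receptor for follicle-stimulating hormone (2.01-fold), the nuclear receptor gene Nr5a2 (1.24-fold) and the prostaglandin synthase gene Ptgs2, at 2.75 to 6.82 in wild type, below background on all 5 arrays, and 11.9 to 20.7 in depleted oocytes. Other markers of this list went the other way. Kitl had a log2 fold change of -0.45 ± 0.15 (SE) with no overlap between groups. Has2, above background on 4 of the 10 arrays, had -0.96 ± 0.31. Neither was called (limma adjusted p = 0.0628 and 0.0547). Of the 14 tested, 5 had an unadjusted p under 0.05 in limma, these 2 among them. Over all genes 13.6% were higher and 16.8% lower at that cutoff. All of the markers named here were picked after their values had been seen. Markers of theca and stroma summed to 188 to 215 in wild type and 191 to 215 in depleted oocytes, with 2 of 10 above background on all arrays and Col1a1 on none. Those of blood, immune and endothelial cells summed to 125 to 153 and 122 to 151, with 3 of 9 above background on all arrays and Ptprc on none. The part of somatic RNA in the member values was not tested, but the differences without wild-type replicate 2 are given for Kdm1a below. In bulk samples, fewer cells of a type and less RNA per cell cannot be told apart.

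Kdm1a, the LSD1 gene, was lower in CTCF-depleted oocytes, by both probe sets that measure it. On the brighter probe set the wild-type arrays read 534, 451, 480, 446 and 461 and the depleted arrays 202, 185, 182, 206 and 237 (MAS5 signal, replicates 1 to 5). All 5 depleted arrays lay below the lowest wild-type array, and the highest depleted value was that of replicate 5. The means were 474 ± 35.7 (SD, n = 5) and 202 ± 22.1 (SD, n = 5), so that 42.7% of the wild-type signal was left. The difference was a log2 fold change of -1.22 ± 0.08 (SE), or 2.33-fold.

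The dimmer Kdm1a probe set was designed from the same cDNA record and is not an independent transcript measurement. Its wild-type values were 124.6, 102, 92.6, 113 and 106 and its depleted values 57.6, 43.6, 42.9, 45.4 and 61.5. Again the groups did not overlap, and 46.6% of the signal was left, a log2 fold change of -1.07 ± 0.12 (SE). Without wild-type replicate 2 the log2 fold changes were -1.24 and -1.09 on the brighter and the dimmer probe set, and without depleted replicate 5 they were -1.28 and -1.15. Both probe sets were above background on all arrays. Over the 17 alternative fits the log2 fold change ran from -1.28 to -1.14 on the brighter and from -1.15 to -0.91 on the dimmer probe set.

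**Figure D1:**
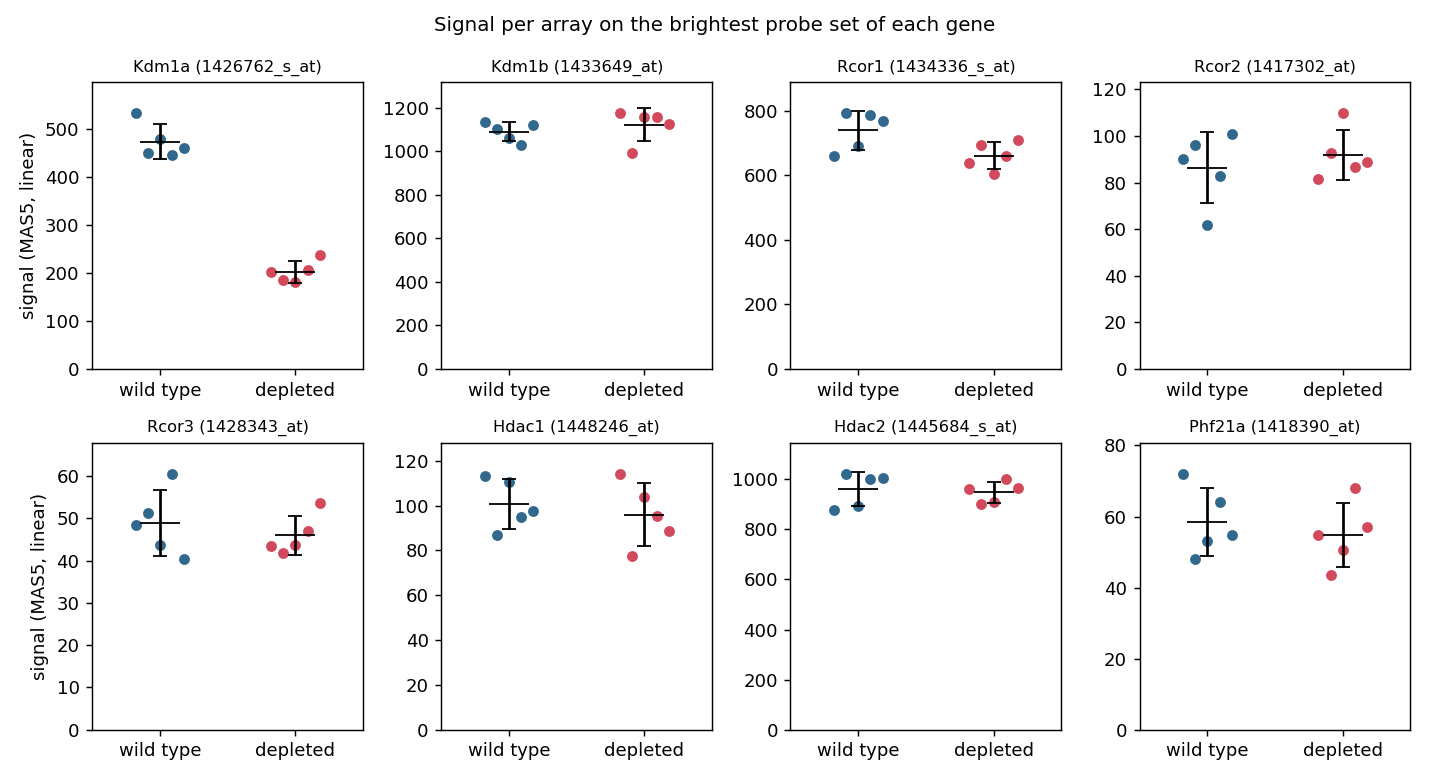
MAS5 signal (linear, vertical axis from 0) on the brightest probe set of each of the 8 genes, with 1 point per array, and the mean and SD of 5 arrays in black. Kdm1a is the only panel in which the depleted arrays (red) lie wholly below the wild-type arrays (blue).

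Among the depleted arrays, Kdm1a signal can be set beside the remaining Ctcf, read on the brighter Ctcf probe set because the dimmer one was close to background on replicates 1 to 4 and below it on replicate 2. Depleted replicate 5, with 9.57% of the wild-type Ctcf mean, had the highest Kdm1a, at 50.01% of the wild-type mean on the brighter and 57.2% on the dimmer Kdm1a probe set. The other depleted arrays had 1.67% to 2.93% of the Ctcf mean, and their Kdm1a did not follow the same order. Replicate 4 had the lowest Ctcf, at 1.67% and close to the 1.72% of replicate 2, and the second highest Kdm1a on the brighter probe set, at 43.4%. Replicate 1, with 2.93% of the Ctcf mean, had 42.5% on the brighter Kdm1a probe set. On the dimmer one it was second highest, at 53.5%, as it was for Ctcf. Replicate 3, with 2.23% of the Ctcf mean, had the lowest Kdm1a, at 38.5% and 39.9%. With 5 arrays this is a description, and no correlation was computed over the depleted arrays alone.

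**Figure D2:**
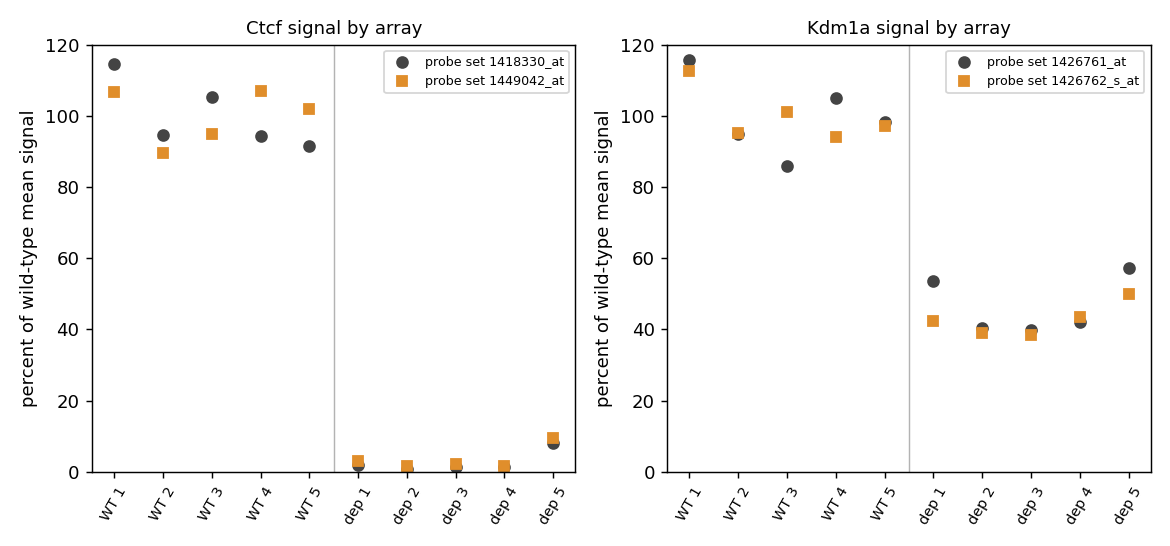
Ctcf (left) and Kdm1a (right) signal on each array as a percentage of the wild-type mean of the same probe set, with 1 symbol per probe set. Depleted replicate 5 is highest of the depleted arrays in both panels, at up to 9.57% for Ctcf and 57.2% for Kdm1a.

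Kdm1b, the second H3 lysine 4 demethylase of this family, was bright and differed little between groups. Its single probe set read 1133, 1103, 1062, 1027 and 1121 on the wild-type arrays and 1175, 993, 1159, 1158 and 1125 on the depleted arrays. The groups overlapped, and the lowest of all 10 values was that of depleted replicate 2. The means were 1089 ± 43.9 and 1122 ± 74.1 (SD, n = 5), and the fit gave 0.04 ± 0.06 (SE) on the log2 scale. With arrays centred on their medians it was 0.13 ± 0.06.

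Of the CoREST scaffold genes, Rcor1 had a lower mean in depleted oocytes on each of its 3 probe sets, with groups that did not overlap on 1 of them. RCOR1 is the founding CoREST protein, which bridges LSD1 and the deacetylases to nucleosomes. On the probe set of intermediate brightness the wild-type arrays read 400, 374, 345, 427 and 436 and the depleted arrays 328, 271, 320, 290 and 330. The groups did not overlap, and the log2 fold change was -0.36 ± 0.08 (SE), leaving 77.6% of the wild-type signal. With median centring the log2 fold change was -0.28.

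The other Rcor1 probe sets, which come from a different cDNA record, gave smaller differences of the same sign. The brightest ran from 659 to 792 in wild type and from 603 to 709 in depleted oocytes, with a log2 fold change of -0.16 ± 0.07 (SE). The dimmest ran from 209 to 276 and from 185 to 219, with -0.22 ± 0.09. Their groups overlapped, with 2 and 3 of the 5 depleted arrays below the lowest wild-type array. The sign was negative on the 3 probe sets in all 17 alternative fits, some of which leave log2 fold changes unchanged by construction.

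Rcor2 and Rcor3 encode paralogs of this scaffold. Rcor2 read 90.2, 96.1, 61.9, 82.7 and 100.8 in wild type and 81.5, 92.6, 109.8, 86.9 and 89.0 in depleted oocytes. Its groups overlapped, and the log2 fold change was 0.10 ± 0.13 (SE), with the opposite sign in 1 of 17 alternative fits. Rcor3 was dim, with mean wild-type signals between 15.4 and 48.8 on its 5 tested probe sets. Their log2 fold changes ran from -0.21 to 0.12 with overlapping groups. A sixth Rcor3 probe set was at or below 1.25 in wild type and was left out of the fit for low signal, although depleted replicate 4 read 8.82 on it.

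The deacetylase genes differed little. Hdac1 and Hdac2 encode the class I histone deacetylases that sit in CoREST and also in the Sin3 and NuRD complexes. Hdac1 read 113, 86.7, 111, 94.9 and 97.6 in wild type and 114, 77.4, 104, 95.5 and 88.9 in depleted oocytes, a log2 fold change of -0.07 ± 0.11 (SE). The ranges nearly coincided, and the sign turned to 0.01 with median centring. On the brighter Hdac2 probe set the means were 960 ± 68.4 and 949 ± 41.8 (SD, n = 5), with a log2 fold change of -0.02 ± 0.06, which was 0.07 with median centring. The other tested Hdac2 probe set had 0.09 ± 0.09, and wild-type replicate 5 stood apart on it at 368 against 294 to 309. The remaining Hdac2 probe set was below background on all 10 arrays.

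Phf21a encodes BHC80, a CoREST subunit whose PHD finger binds histone H3 that is unmethylated at lysine 4, the product of LSD1. On its brightest probe set the wild-type arrays ran from 48.0 to 72.0 and the depleted arrays from 43.5 to 68.0, with a log2 fold change of -0.09 ± 0.14 (SE). Another gave 0.06 ± 0.12 and a dimmer one -0.22 ± 0.19, all with overlapping groups. The fourth Phf21a probe set was below background on all arrays and was not tested.

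Over the set, 18 of 21 probe sets passed the filter on dim signals. As a count only, since the set was chosen with this comparison known, 3 of them (both of Kdm1a and 1 of Rcor1) lay among the probe sets that limma called lower at a Benjamini-Hochberg adjusted p under 0.05, and 0 among those called higher. Of all 27022 tested probe sets 7.12% were called lower and 5.48% higher. The same 3 were lower with no overlap between groups, and 0 were higher with none, beside 6.38% and 4.69% of all probe sets. At an unadjusted p under 0.05 in limma 5 member probe sets, all of Kdm1a and Rcor1, were lower and 0 higher, beside 14.2% and 11.2% of all probe sets. With median centring the calls over all probe sets split into 2179 higher and 1086 lower, in place of 1481 and 1925. Calls with a fall of at least 2-fold, as on both Kdm1a probe sets, made up 0.999% of all probe sets. Nothing about the members is read from these shares. The 13 tested probe sets of the 6 other genes had log2 fold changes between -0.22 and 0.12. The median over the 18 was -0.08, beside -0.02 over all tested probe sets.

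**Figure D3:**
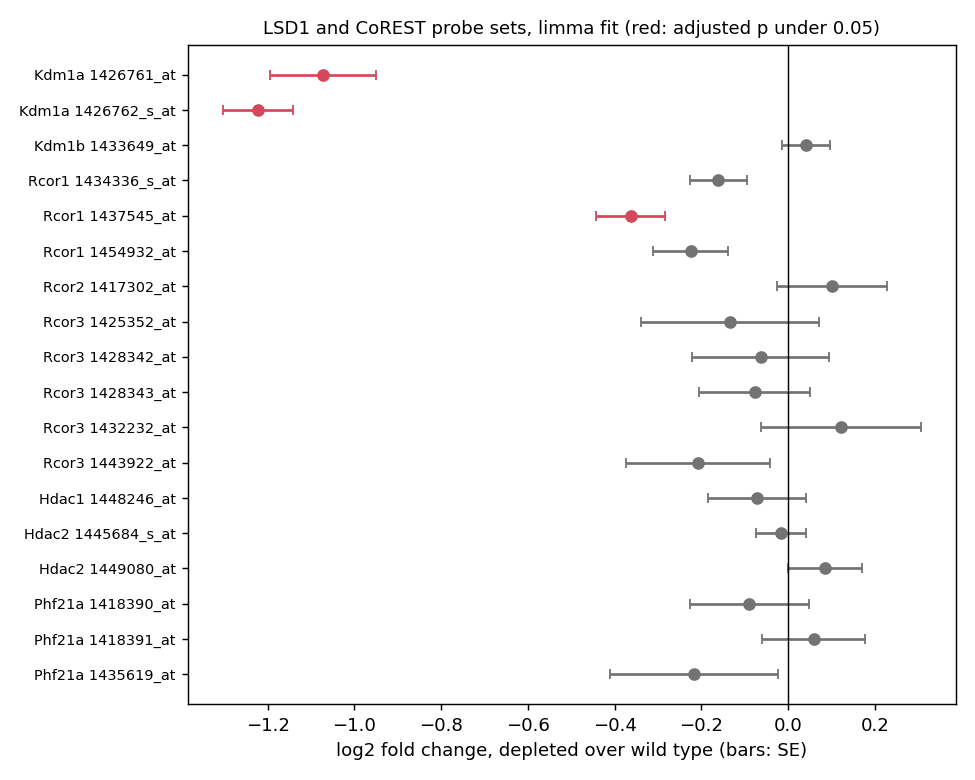
Log2 fold change of depleted over wild-type oocytes for the 18 tested probe sets, with the SE of the limma fit as bars and the probe sets counted as called over all probe sets in red. Kdm1a lies at -1.07 and -1.22, the 3 Rcor1 probe sets between -0.36 and -0.16, and the other 13 between -0.22 and 0.12.

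The wider LSD1 and CoREST neighbourhood was looked at through a list of proteins that bind either enzyme or belong to its complexes. This list and the later ones were chosen with earlier results of these data known. The p-values of their genes are therefore given as a description. Of 17 tested genes 1 rose and 2 fell, 17.6% against 16.4% of all 13811 genes, of which 7.26% were called higher and 9.12% lower. The list's median log2 fold change was 0.02, beside -0.02 over all genes. Hmg20b, the HMG-box subunit of the LSD1 and CoREST complex also called BRAF35, fell 1.43-fold from 92.9 ± 9.57 to 63.9 ± 4.27 (SD, n = 5; limma, Benjamini-Hochberg adjusted p = 0.00217). Zmym2, a zinc finger protein found with LSD1, CoREST and the deacetylases, read 295 to 383 in wild type and 219 to 293 in depleted oocytes. It fell by 0.51 ± 0.09 on the log2 scale (SE; limma adjusted p = 0.000895), and its other probe set gave -0.38. The Zmym2 groups did not overlap, but the highest depleted array, at 292.6, was close to the lowest wild-type one, at 294.9.

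Insm1 was the gene of this list that rose. It encodes a zinc finger repressor whose SNAG domain recruits LSD1. Its signal was 279, 385, 346, 406 and 311 on the wild-type arrays and 514, 615, 569, 638 and 637 on the depleted ones. All depleted arrays were above all wild-type arrays, with a log2 fold change of 0.79 ± 0.10 (SE; limma adjusted p = 2.65e-05) and 0.68 on its other probe set. Hmg20b, Zmym2 and Insm1 remained past the threshold in all 17 alternative fits. Glyr1, the KDM1B partner, had a log2 fold change of 0.04 ± 0.05, Rest, a repressor that recruits CoREST, 0.04 ± 0.05, and Ctbp1, a corepressor of the complex, -0.05 ± 0.08, and none passed; these 3 were named after their values had been seen.

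Other enzymes acting on histone methylation were covered by a pair of lists, to be read beside the 7.26% of all genes called higher and 9.12% called lower, and the 13.6% and 16.8% that were higher and lower at an unadjusted p under 0.05. Of 19 tested histone demethylases outside the LSD1 family, limma called 0 higher and 0 lower on their brightest probe sets, and 0 had an unadjusted p under 0.05. Dimmer probe sets of these genes had log2 fold changes from -0.53 (Kdm5c) to 0.65 (Phf2), which these counts leave out. Kdm2b, a demethylase of H3 lysine 36 and the brightest gene of this list, differed by -0.07 ± 0.05 (SE) on the log2 scale. Of 23 tested genes of the H3 lysine 4 methyltransferases and their subunits, the writers of the mark that LSD1 erases, 1 rose and 0 fell, with 1 higher and 6 lower at an unadjusted p under 0.05. Wdr5, a core subunit of these complexes, rose 1.14-fold, from 2009 ± 127 to 2293 ± 53.6 (SD, n = 5; limma adjusted p = 0.012), with 0.20 on its other probe set. The medians of these lists were -0.03 and -0.05.

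Among other deacetylases and subunits of deacetylase complexes, 3 of 33 tested genes rose and 2 fell, 15.2% against 16.4% of all genes, with a median log2 fold change of 0.01. Mbd3, a NuRD subunit, rose 1.48-fold from 116 ± 17.3 to 173 ± 24.3 (SD, n = 5; limma adjusted p = 0.00379). Gatad2b, another NuRD subunit, fell by 0.34 ± 0.06 on the log2 scale (SE; limma adjusted p = 0.00145) where it was brightest, while the 3 dimmer probe sets for it read 0.13, -0.12 and 0.31. Sap30, of the Sin3 complex, rose 1.10-fold (limma adjusted p = 0.0358), and Ing2, of the same complex, fell 1.16-fold (limma adjusted p = 0.0468), but each passed in only 6 of 17 alternative fits. Tbl1xr1, of the NCoR complex, rose by 0.41 ± 0.12 (limma adjusted p = 0.0285), passed in 10 of the 17, and had values from -0.66 to 0.30 on its other 4 probe sets.

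**Figure D4:**
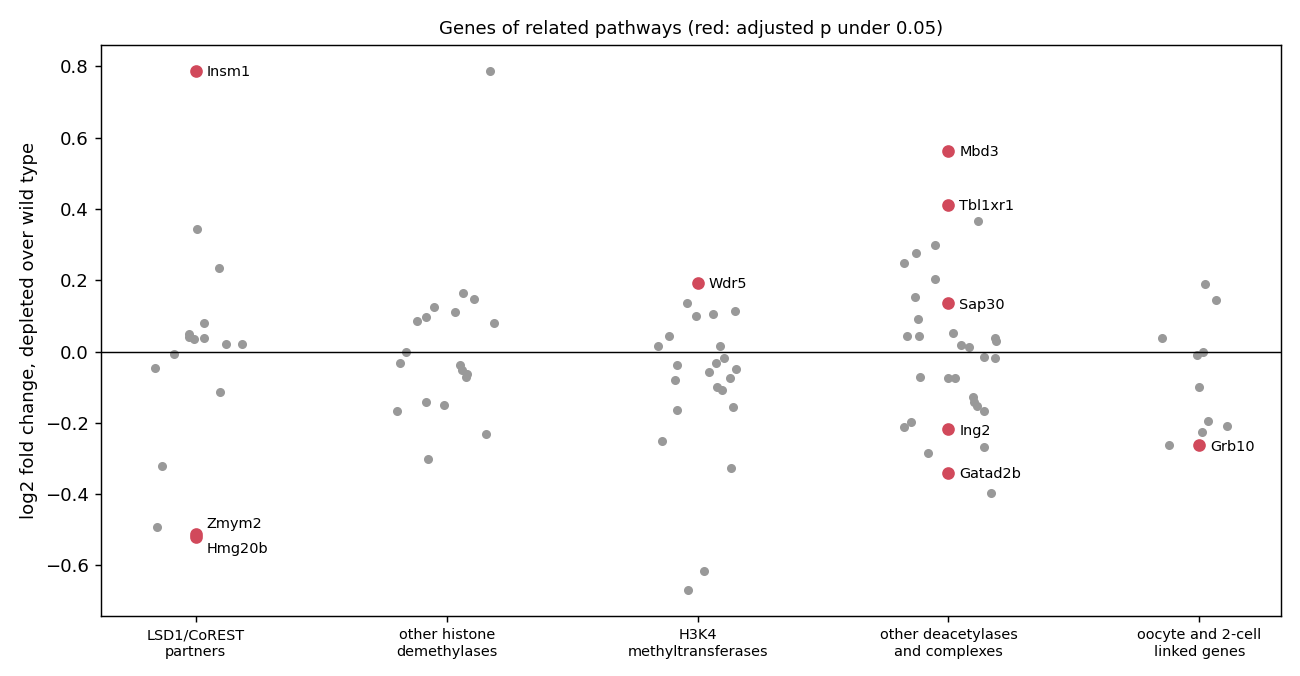
Log2 fold change of depleted over wild-type oocytes for each tested gene of 5 lists, 1 point per gene on its brightest probe set, with genes past the limma threshold in red and named. Insm1 lies highest among the named genes at 0.79 and Hmg20b lowest at -0.52.

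The last list held transcripts linked to LSD1 or KDM1B in mouse oocytes and 2-cell embryos. It named 21 genes, but only 12 had a probe set with a single symbol and 11 were tested. Zscan4c, Zscan4d, Zscan4f and Duxf3 were among those not tested, so the list covers the 2-cell transcripts only in part. Of the 11 tested, 0 rose and 1 fell, 9.09% against 16.4% of all genes called in either direction. At an unadjusted p under 0.05 in limma 2 were higher and 5 lower, where 13.6% and 16.8% of all genes were, and the median log2 fold change was -0.10, beside -0.02 over all genes. Grb10, an imprinted gene whose maternal DNA methylation depends on KDM1B in mouse, fell 1.20-fold from 264 ± 23.4 to 219 ± 12.6 (SD, n = 5; limma adjusted p = 0.0317), with -0.22 on both other probe sets, but passed in only 8 of 17 alternative fits. Mest and Plagl1, imprinted genes of the same kind, showed 0.15 ± 0.06 and -0.22 ± 0.10 (SE) on the log2 scale, and Cdc25b, the phosphatase that drives meiotic resumption, -0.19 ± 0.07. These did not pass (limma adjusted p = 0.149, 0.157 and 0.0868) and were named after their values had been seen.

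Genes beside Kdm1a on chromosome 4 and beside Rcor1 on chromosome 12 were compared too, a step added after the data had been seen. Of the 4 protein-coding genes on either side of Kdm1a in the RefSeq order, 6 could be tested and limma called 0, with 2 at an unadjusted p under 0.05 and a lowest adjusted p of 0.107. That lowest value belonged to Tex46, next to Kdm1a. Its signal was 8.25 ± 1.34 in wild type and 4.07 ± 2.19 in depleted oocytes (SD, n = 5), with no overlap between groups and a log2 fold change of -0.79 ± 0.31 (SE), but it was above background on only 2 of the 10 arrays. Luzp1, on the other side of Kdm1a, had a log2 fold change of 0.14 ± 0.07. Around Rcor1, 6 of 8 neighbours could be tested and limma called 0, with 1 at an unadjusted p under 0.05 and a lowest adjusted p of 0.163. Over all genes 7.26% were called higher and 9.12% lower, and 13.6% and 16.8% were so at an unadjusted p under 0.05. Of all tested probe sets 6.38% were lower with no overlap between groups. Nothing about either region is read from these counts.

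The probe sets whose signal followed the brighter Kdm1a probe set most closely over the 10 arrays were ranked by Pearson correlation of log2 values among 23590 probe sets, as a description in which the difference between groups dominates. They were those of Pigc, an enzyme of glycosylphosphatidylinositol anchor synthesis (r = 0.992), Kalrn, a guanine nucleotide exchange factor (0.992), Cilk1, a kinase of the primary cilium (0.990), Ifitm6 (0.989) and the dimmer Ctcf probe set (0.989). Ifitm6 had the smallest difference of the 5, with means of 1157 ± 56.3 and 809 ± 35.1 (SD, n = 5), and Ctcf the largest. On deviations from the group means, where the groups cannot contribute, the closest were Clasp2 (0.978), Bmx (0.946), Acadl (0.930), Zbtb8b (0.929) and Papola (0.923). The first ranking and the second had no gene in common. On the deviations the 5 probe sets of the first ranking had r from 0.698 (Cilk1) to 0.793 (Ctcf). Depleted replicate 5 stood apart on that Ctcf probe set, at 61.1 against 14.2 on the nearest other depleted array.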

How the data were processed

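Total RNA from germinal vesicle oocytes was turned into biotin-labelled cRNA, per the labels' protocols. The authors deposited a linear intensity for each probe set on each array. The submitters' processing notes name MAS5, and its version is not given in the sources used here. With the lowest and highest 2% removed, every array averaged 150.001, so the deposited arrays were already scaled.

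Of the probe sets, 34945 have 1 symbol in the platform annotation, 932 several and 9160 none. The 64 controls were removed and log2(signal + 2.47) was taken, the offset being the 25th percentile. Fold changes on this scale understate those of dim genes. Probe sets whose mean fell under the 40th percentile (a signal of 5.13) were dropped. The other 27022 were fitted with limma 3.58.1 in R 4.3.3 (eBayes with intensity trend, Benjamini-Hochberg over all of them, threshold 0.05). Each gene stands for its brightest tested probe set. The fit was tested on simulated data with the means and spread of these arrays. In them 100 probe sets changed by 0.5 and 100 by 1 on the log2 scale. The fit called 32.0% and 70% of these, with 4 false calls among 98. A gene that was not called may therefore still differ between groups.

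The members and lists were chosen with earlier results of these data known. The rule for named genes took all member and Ctcf probe sets, up to 6 called genes per list by adjusted p, the brightest gene of a list without calls, and the 5 closest probe sets per ranking. The 17 alternatives were an offset of 16, no filter, median centring, quantile normalization, no intensity trend, a replicate block, a covariate from control probe sets (3-prime over 5-prime signal), and each of 10 arrays left out. Dropping the filter or the trend, or adding the block, cannot change a log2 fold change, only its SE and p-value. Precision is limited by the number of arrays.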

Additional observations from a re-analysis of the deposited data

Results flagged for a closer look

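In groups of 5 arrays, an array was picked out when its gap to the nearest other array, as a share of the group's range, exceeded Dixon's 95% critical value, which chance does in about 1 of 20 groups; 46 groups were looked at and 6 arrays were found. Depleted replicate 5 was highest for Ctcf on both probe sets, at 61.1 (nearest other array 14.2) and 95.8 (29.3). Depleted replicate 2 was lowest for Kdm1b at 993 (1125). Wild-type replicate 5 was highest on the dimmer tested Hdac2 probe set at 368 (309) and on the dimmest tested Phf21a probe set at 35.1 (22.6). Depleted replicate 4 was highest on the untested, dim Rcor3 probe set at 8.82 (1.23). The cause was not tested for any of them.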

How the results depend on the processing

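The 18 member log2 fold changes moved by less than the spread between arrays in all 17 alternative fits, except Kdm1b, at 0.13 with median centring; the log2 fold change of the dimmer Ctcf probe set was -4.57 with an offset of 16. The count of member probe sets called lower was 3 except under median centring, where it was 2 because that of Rcor1 was lost. Median centring, which moved the median log2 fold change of all probe sets from -0.02 to 0.06, gave 1086 probe sets and 709 genes called lower, against 1925 and 1260, and 2179 and 1418 called higher, against 1481 and 1003. It turned the sign of uncalled Hdac1, Hdac2 and Rcor3 probe sets.

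Counts on the lists were small and moved more. With the 3-prime to 5-prime covariate 2 partners of LSD1 and CoREST rose. Of other histone demethylases 1 rose with median centring and 1 with the covariate, and with single arrays left out 0 to 1 rose (1 without depleted replicate 2) and 0 to 1 fell (1 without depleted replicate 3). Of the H3 lysine 4 methyltransferase genes 0 rose without the intensity trend, 1 fell with the covariate, and 0 to 1 fell with single arrays left out (1 without depleted replicate 2 or 3). Of other deacetylase genes 1 rose and 1 fell without the filter and 1 and 1 without the trend, 1 fell with median centring and 1 with the replicate block. With single arrays left out 1 to 3 rose (1 without wild-type replicate 1 or depleted replicate 3 or 4) and 1 to 3 fell (1 without wild-type replicate 1, 2, 4 or 5 or depleted replicate 1, 3 or 5). Of the genes linked to LSD1 or KDM1B 0 fell with median centring, 0 without the trend, 0 with the covariate and 2 with the replicate block. With single arrays left out 0 to 1 rose (1 without depleted replicate 3) and 0 to 2 fell (2 without wild-type replicate 1, and 0 without wild-type replicate 2, 4 or 5 or depleted replicate 2 or 4). The cause was not tested.

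Replicate numbers were shared between groups, but deviations of same-numbered arrays correlated at only 0.0024 to 0.051 across probe sets. Not every array correlated best with its own number, so the block was not used. A block cannot change log2 fold changes here, because each number occurs once in each group. It can change only their SE and p-values. Dim probe sets, such as those of Rcor3 and Phf21a, limit what can be seen.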
